A study of Mus musculus with 6 samples.

Results

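The proteasome subunits in these data were the genes of the deposited FPKM table (fragments of a gene divided by its exon length and by the mapped reads of the library) whose symbol starts with *Psm*, a letter from a to g and a number, which gave 50 genes of 25899 symbols. The 26S proteasome is the protease that degrades proteins tagged with ubiquitin. Its 20S core is a barrel of alpha and beta rings with the active sites inside, and its 19S cap recognises the tagged protein and removes the tag, while a ring of ATPases unfolds the protein and threads it into the core. In oocytes the proteasome is known for degrading cyclin B and securin when chromosomes separate in meiosis I.

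The samples were post-NEBD oocytes (collected after nuclear envelope breakdown) of aged CD1 females (AF), 58 weeks old per the labels, while the study's text names another age and the ICR strain. Germinal vesicle oocytes were taken 46 h after 5 IU of pregnant mare serum gonadotropin, freed of cumulus cells, cultured without IBMX for 180 min and exposed for 10 min to cycloheximide at 0.1 mg/ml, which holds ribosomes on mRNA. Each sample of 200 oocytes, pooled from animals whose number the labels do not give, was lysed and separated on a sucrose gradient, and its fractions were pooled into a non-polysomal part (NP, free and monosome-bound RNA) and a polysomal part (P). There were 3 AF NP and 3 AF P libraries, and no genotype or drug differed between them. All 6 share the age, the hormone and the cycloheximide, and oocytes of young females were not analysed here. The comparison sets the level of each mRNA in the polysomal part beside its level in the non-polysomal part.

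Recovered depth ranged from 163641 reads in AF P replicate 1 to 18086535 in AF NP replicate 2, so the upper limit of a 0 for a 2 kb gene was 9.17 FPKM in the shallowest library and at most 1.32 FPKM in the rest (3 reads, counting error only). Zeros can also be failed estimates, since all 13 mitochondrially encoded mRNAs were listed at 0 in every library. The summed FPKM was between 597261 and 633110 in AF NP and between 246182 and 393876 in AF P, so the fractions did not overlap in this sum. Oocyte identity was clear in each library. All 14 oocyte markers were present in both fractions with a summed level of 14721 to 18924 FPKM in AF NP and 6153 to 18512 FPKM in AF P. Of 13 granulosa and cumulus markers, 8 were at 0 throughout, *Amh*, *Fshr* and *Foxl2* among them, while *Cyp19a1* was at 7.15, 22.5 and 104 FPKM in AF NP and 15.4, 0 and 0 FPKM in AF P and *Nr5a2* at 3.37, 6.32 and 26.9 against 0, 5.71 and 1.18 FPKM. The summed level of the 13 was 11.2 to 131 FPKM in AF NP and 1.54 to 16.5 FPKM in AF P. Of 10 blood and immune markers in the table, 8 were at 0 throughout, *Ptprc* among them. *Csf1r* was at 12.9, 16.5 and 0.388 FPKM in AF NP and 2.50, 8.07 and 0 FPKM in AF P. *H2-Aa* was at 6.47, 8.26 and 1.67 FPKM in AF NP and 13.0, 2.80 and 54.1 FPKM in AF P. The summed level of the 10 was 2.06 to 24.8 FPKM in AF NP and 10.9 to 54.1 FPKM in AF P. The part of these other-cell markers in the results was not tested.

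Proteasome mRNAs were very unequal in level. Among the 50 genes, 32 had a value above 0 in each of the 6 libraries, and 4 were at 0 throughout. The mean was above 100 FPKM for 13 genes in AF NP and for 8 in AF P. Together the 50 genes held 0.928%, 0.751% and 0.790% of the summed FPKM in the NP libraries (replicates 1 to 3, the order kept in what follows) and 0.701%, 0.840% and 0.663% in the P libraries. These shares overlapped between the fractions.

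**Figure D1:**
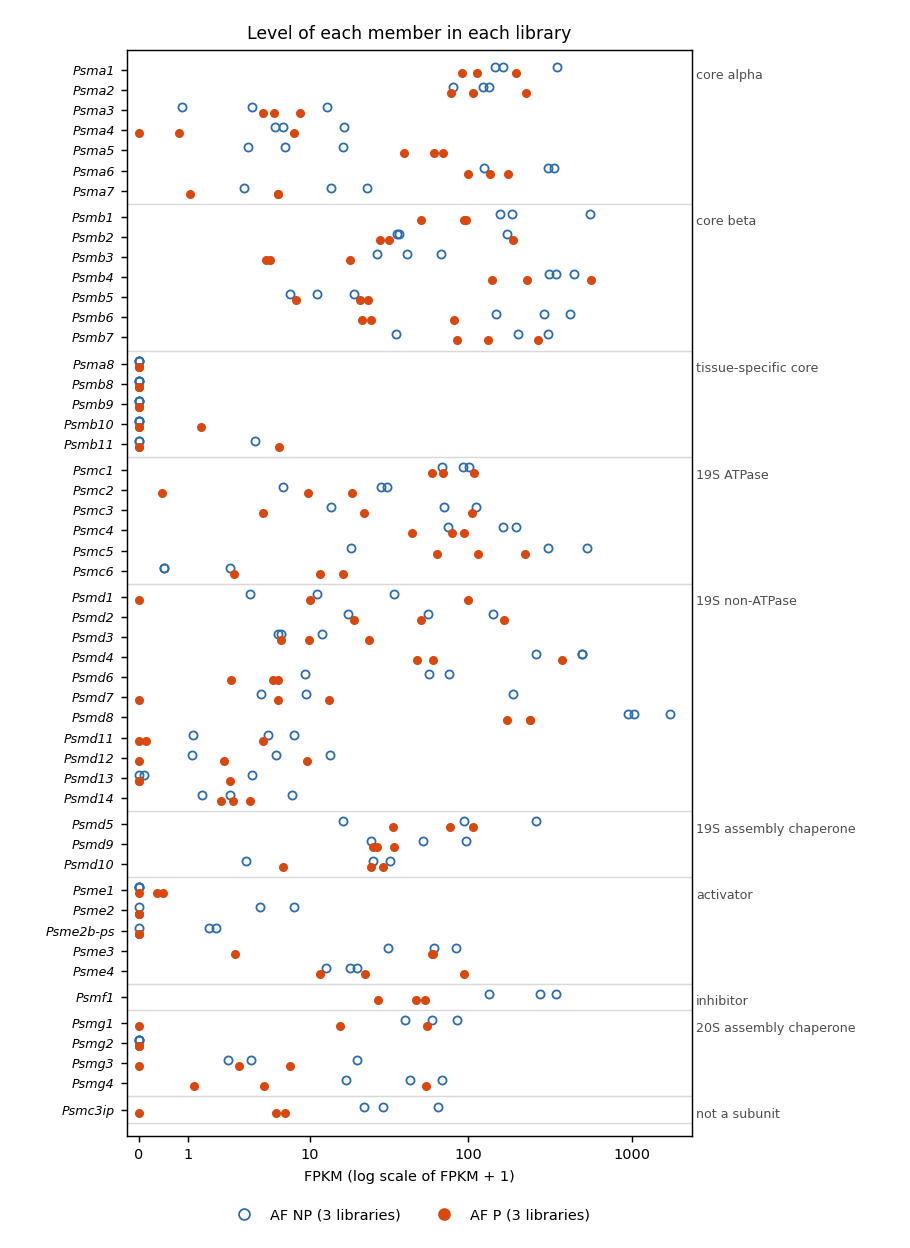
FPKM of each of the 50 genes on a log scale of FPKM + 1, with 3 open points for AF NP and 3 filled points for AF P, grouped by role. *Psmd8* is the highest gene in AF NP at 943 to 1702 FPKM, and *Psma8*, *Psmb8*, *Psmb9* and *Psmg2* sit at 0 in all 6 libraries.

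Of the constitutive 26S particle, 31 subunits carry a *Psm* symbol (7 alpha, 7 beta, 6 ATPase and 11 non-ATPase). The cap subunits *Adrm1* and *Sem1* (listed as *Shfm1*) do not, and are left out of the values below. The 31 are all needed in fixed numbers in the finished particle, but their mRNA levels were spread widely within a library. In AF NP replicate 2, the deepest library, the highest of them was *Psmd8* at 943 FPKM and the lowest was *Psmc6* at 0.424 FPKM, a 2223-fold range. In AF P replicate 2 the range ran from *Psma4* at 0.739 FPKM, which is 2 reads, to *Psmb7* at 265 FPKM. The 3 highest of the 31 genes held between 41.6% and 59.9% of their summed FPKM in AF NP and between 33.1% and 50.2% in AF P. The median of the 31 was 56.0, 35.9 and 18.5 FPKM in AF NP, above the median of the symbols listed above 0 in the same libraries at 9.16, 5.54 and 4.77 FPKM. In AF P the corresponding medians were 47.8, 22.5 and 23.7 FPKM for the 31 genes against 12.8, 5.78 and 6.28 FPKM. The 11 non-ATPase genes had lower medians, at 6.34, 13.5 and 9.18 FPKM in AF NP and 2.62, 6.35 and 5.55 FPKM in AF P. These lay below the median of the listed symbols in AF NP replicate 1 and in AF P replicates 1 and 3. The profile of the 31 genes on the log2(FPKM + 1) scale was alike between libraries, with Pearson's r of 0.910 for AF NP replicates 1 and 2, the highest of the 15 pairs, and 0.618 for AF NP replicate 3 and AF P replicate 1, the lowest. Across all 10578 genes tested the same pairs gave 0.829 and 0.586. These are correlations across genes, which share their library and are not independent replicates.

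**Figure D2:**
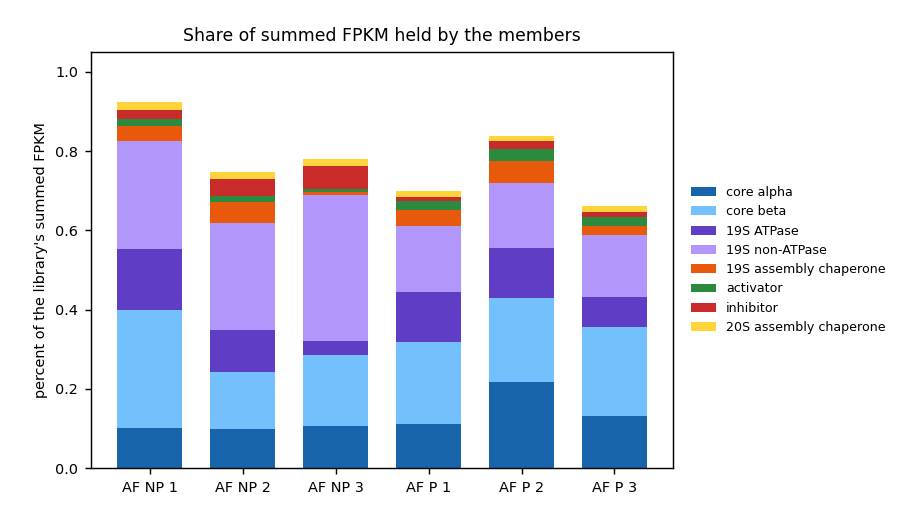
Percent of each library's summed FPKM held by the proteasome genes, stacked by role, for AF NP replicates 1 to 3 and AF P replicates 1 to 3 (the tissue-specific core subunits and *Psmc3ip* are left out). The 19S non-ATPase segment is taller in the 3 AF NP bars, at 0.272% to 0.368%, than in the 3 AF P bars, at 0.155% to 0.166%.

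The non-ATPase share was 0.274%, 0.272% and 0.368% in AF NP and 0.166%, 0.162% and 0.155% in AF P, and the fractions did not overlap. *Psmd8*, a lid subunit, was the largest part of this segment in 5 libraries and *Psmd4*, a ubiquitin receptor, in AF P replicate 3. Without *Psmd8* the share was 0.107%, 0.123% and 0.083% in AF NP and 0.096%, 0.065% and 0.111% in AF P, which overlap. In summed FPKM as deposited, every P library was below every NP library both with *Psmd8* and without it. The core alpha share was 0.102%, 0.0973% and 0.106% in AF NP and 0.111%, 0.216% and 0.132% in AF P, with every P library above every NP library, while its summed FPKM as deposited was 624, 616 and 631 in AF NP and 377, 532 and 519 in AF P, with every P library below, so the direction depends on the division by the smaller P totals. The activator share was also higher in every P library, at 0.0242% to 0.0290% against 0.0074% to 0.0186%, where the summed FPKM overlapped (82.6, 71.5 and 96.8 in AF P against 114, 85.1 and 44.4 in AF NP), and that of the 20S assembly chaperones lower, at 0.0113% to 0.0161% against 0.0174% to 0.0202%. The shares of core beta, ATPase, 19S assembly chaperone and inhibitor genes overlapped between the fractions. As deposited, the summed FPKM of core beta was 1819, 919 and 1074 in AF NP and 705, 525 and 883 in AF P, with every P library below. That of the inhibitor was also lower in every P library, at 27.5, 54.0 and 47.5 against 133, 273 and 341. Those of the ATPase and 19S assembly chaperone genes overlapped. These shares were not tested, as they are sums over genes chosen with results known.

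P was compared with NP by limma on log2(FPKM + 1) in genes with a mean above 1 FPKM in either fraction, with Benjamini-Hochberg adjustment over 10578 genes and a threshold of 0.1. Of the 50 genes, 44 were tested, and *Psma8*, *Psmb8*, *Psmb9*, *Psmb10*, *Psme1* and *Psmg2* were too low. Of these, *Psmd8* passed, which was lower in P, and none passed as higher. That is 1 of 44 (2.27%), where 1.80% of all genes tested were called lower and 0.0189% higher. At an unadjusted p under 0.05 there were 10 of 44 (22.7%), where 15.8% of all genes passed, and 1 of the 10, *Psma5*, was higher in P. As a median, the log2 ratio (P over NP) was -0.83 for the 44 genes and -1.03 for all genes tested, a difference of 0.20 that turned to -0.05 with a pseudocount of 5 and -0.57 with no filter (all 50 genes), and 33 of the 44 ratios were below 0 (75.0%), where 80.1% of all ratios were. Brought to a common FPKM sum, median-of-ratios or quantile scale, the median of all genes moved to -0.43, -0.37 and 0.0027 and that of the proteasome genes to 0.12, 0.15 and 0.20 (43, 43 and 44 genes past the filter, since *Psme2b-ps* fell out on the first and second scale), so the direction of the median depends on the scaling. On the same scales the calls over all genes changed from 190 lower and 2 higher to 5 and 2, 1 and 2, and 2 and 2. In bulk libraries like these, fewer oocytes with an mRNA on polysomes and less of it on polysomes per oocyte cannot be told apart. FPKM is divided by the reads of each library, so the ratio does not give the share of an mRNA on polysomes.

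**Figure D3:**
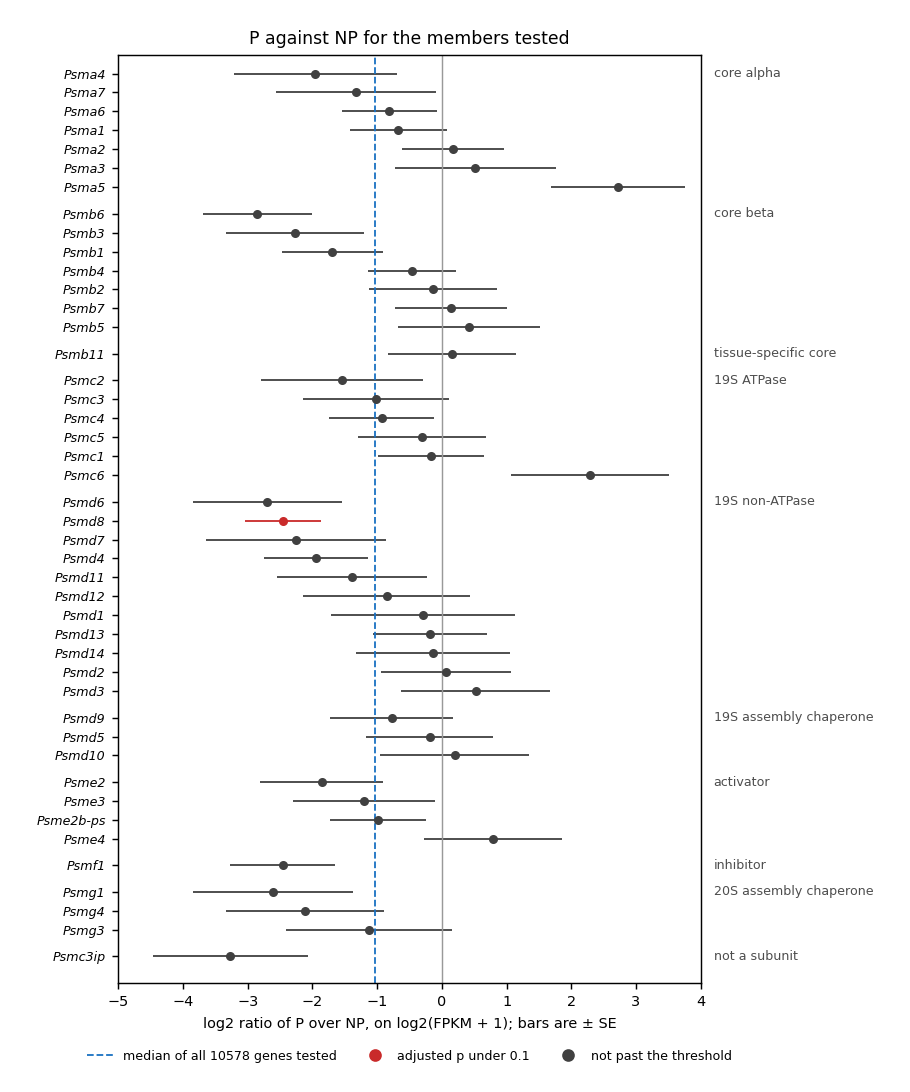
Log2 ratio of P over NP for the 44 genes tested, with bars of ± SE from limma, grouped by role, and a dashed line at the median of all genes, -1.03. *Psmd8* is the 1 point past the threshold, and *Psma5* at 2.72 and *Psmc6* at 2.29 lie farthest to the right.

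Every P library lay below every NP library in 7 of the 44 genes (15.9%), where this held for 23.2% of all genes tested. Those 7 were the beta subunits *Psmb1*, *Psmb3* and *Psmb6*, the lid subunits *Psmd6* and *Psmd8*, the inhibitor *Psmf1* and *Psmc3ip*. Every P library lay above every NP library in 2 of the 44 (4.55%), *Psma5* and *Psmc6*, where this held for 0.633% of all genes. The first share was below its background and the second above it, but they rest on few genes and were not tested.

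**Figure D4:**
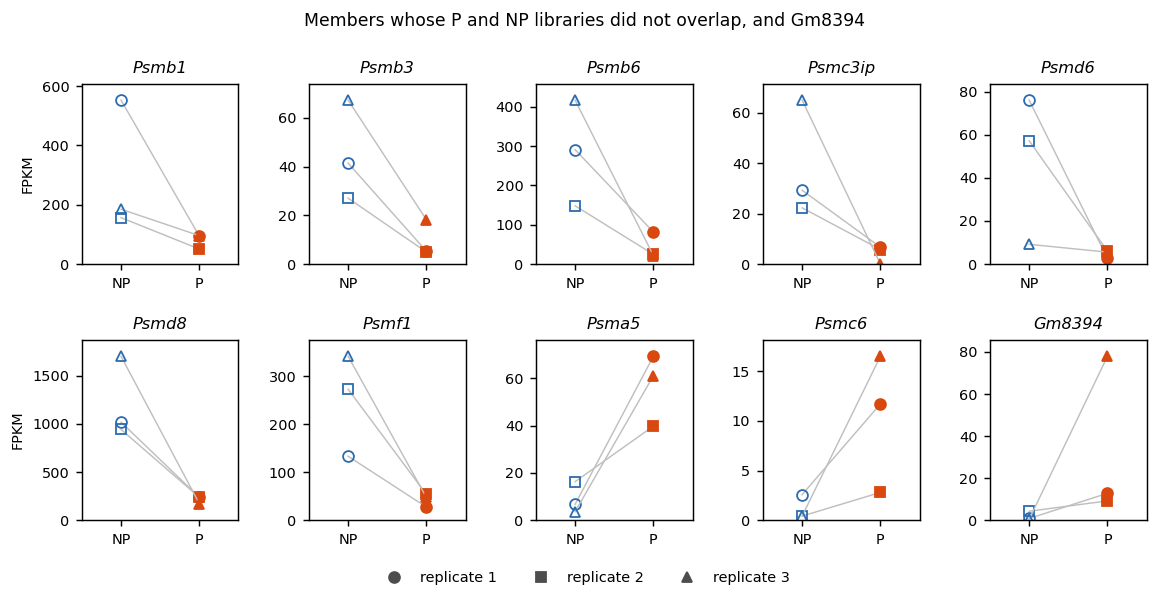
FPKM in NP and P on linear axes from 0 for the 9 genes whose fractions did not overlap and for the pseudogene *Gm8394*, with a symbol for each replicate number and grey lines joining libraries of the same number. The first 7 panels fall from NP to P, and *Psma5*, *Psmc6* and *Gm8394* are higher in all 3 P libraries.

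*Psmd8* (chromosome 7, GRCm38) was at 1018, 943 and 1702 FPKM in the 3 AF NP libraries and at 238, 239 and 172 FPKM in AF P. The lowest NP library was well above the highest P library, and no other proteasome gene was as high in NP. The means were 1221 ± 418 (SD, n = 3) in NP and 216 ± 38.3 (SD, n = 3) in P. The log2 ratio was -2.46 (SE 0.59, limma adjusted p = 0.0540), and 1.42 below the median of all genes. Over the alternatives its ratio stayed below 0, from -2.62 to -1.46, with a limma adjusted p from 0.0270 to 0.650. The call was lost with any one AF NP library left out (limma adjusted p = 0.341 without replicate 1, 0.273 without replicate 2 and 0.165 without replicate 3), on the 3 common scales, with no filter, and without the trend. It held without AF P replicate 1, the shallowest library, with the filter recomputed (limma adjusted p = 0.0669) but not with the filter of all libraries kept (limma adjusted p = 0.201).

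The core alpha subunits form the outer rings, which gate the entry of the barrel. *Psma1*, *Psma2* and *Psma6* were the high ones. *Psma6* was at 306, 333 and 125 FPKM in AF NP and 98.9, 175 and 135 FPKM in AF P. *Psma1* was at 145, 163 and 349 FPKM in AF NP and 113, 195 and 91.8 FPKM in AF P, and *Psma2* at 123, 80.3 and 133 against 77.6, 107 and 225 FPKM. The fractions overlapped in all 3 genes. *Psma3*, *Psma4* and *Psma7* stayed between 0 and 23.4 FPKM in every library. The median ratio of the 7 genes was -0.67, with 4 ratios below 0 and 3 above, and none passed the test. Sequences at or above 95% identity over at least 500 bases exist elsewhere in the annotation for *Psma2*, *Psma3*, *Psma4* and *Psma5*, and for *Psma3* the pseudogene *Gm13835* matched at 100% over 685 bases, so the levels of these genes depend on how reads with several matches were counted, which is not given in the sources used here.

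*Psma5*, the alpha subunit of chromosome 3 (108256926 to 108279974), had the highest ratio of the 44 genes. It was at 6.73, 16.3 and 3.62 FPKM in AF NP and at 69.3, 39.8 and 61.1 FPKM in AF P. All P libraries were above all NP libraries, with 39.8 FPKM as the lowest P value and 16.3 FPKM as the highest NP value. The log2 ratio was 2.72 (SE 1.04, limma adjusted p = 0.209), so the difference did not pass, and over the alternatives the ratio ran from 2.22 to 3.89 with a limma adjusted p from 0.134 to 0.455. The values correspond to about 11, 389.8 and 57.9 reads in AF NP and 15, 59.9 and 125 reads in AF P, so the P value of replicate 1 rests on few reads. A processed pseudogene of *Psma5* on chromosome 10, *Gm8394*, which matches it at 98.63% over 952 bases, had values of 0.849, 4.30 and 0.433 FPKM in AF NP against 12.8, 9.20 and 78.0 FPKM in AF P. It was also higher in every P library, and reads of the gene and its copy cannot be told apart here.

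Cytoplasmic polyadenylation elements (CPE) are short uridine-rich sequences near the 3′ end of mRNAs, bound by CPEB1, through which maturing oocytes switch on the translation of stored mRNAs. The letters TTTTAT or TTTTAAT were searched on the sense strand in the last 100 bases of the 3′ UTR of the GENCODE M21 transcript with the longest coding sequence. They were found in 6 of the 43 tested proteasome genes with such a transcript (14%) and in 18.6% of the 8916 genes tested that have one. The sequences of the 6 genes are shown because 1 of them, *Psma5*, is the gene highest in P relative to NP. They are given 5′ to 3′ with the searched letters in capitals, in the order chr7:114264660-114264687 (minus strand), chr3:108279911-108279938 (plus), chr17:15475029-15475057 (minus), chr11:97713466-97713494 (plus), chr16:95979967-95979994 (minus) and chr5:139823621-139823648 (minus) of GRCm38, all in the 3′ UTR.
Psma1: tataccaatgtTTTTATatgaagaaaat
Psma5: tgtgtgtgtttTTTTATgaagtctgtac
Psmb1: tttttgcttttTTTTAATaaacttctgtt
Psmb3: tttgtttttctTTTTAATaaaattgcctt
Psmg1: gatgttttgtaTTTTATtctggcttggg
Psmg3: tgggaagatttTTTTATtaaaaataaat

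In *Psmb1* and *Psmb3* the capitals share 3 letters with the polyadenylation signal AATAAA, and in *Psmg3* they share 2 with ATTAAA. The *Psmb1* sequence lies beyond the 3′ end of the gene in the deposited table, which starts at 15475721. Of the 6 genes, *Psma5* alone had a ratio above 0. Their median ratio was -1.41, against -0.78 for the 37 other proteasome genes, while over all genes tested it was -0.87 with the letters and -1.07 without. The order in the proteasome genes was thus the opposite of that over all genes, over 6 genes and with no test. The signals AATAAA or ATTAAA were found in the last 40 bases of 35 of the 43 (81.4%) and of 74.9% of all genes. The 3′ UTRs were short, with a median of 294 bases against 915 for all genes tested. A match of letters is a description of the sequence and not of a bound site.

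The core beta subunits form the inner rings, and *Psmb5*, *Psmb6* and *Psmb7* carry the active sites. *Psmb6*, the caspase-like site, was at 291, 148 and 417 FPKM in AF NP and 81.5, 24.8 and 21.7 FPKM in AF P. All P libraries were below all NP libraries. The log2 ratio was -2.85 (SE 0.84, limma adjusted p = 0.113; range over the alternatives 0.0579 to 0.650). It did not pass with all libraries unpaired and was called lower with the replicate number as a block (limma adjusted p = 0.0579) and without AF P replicate 1 (limma adjusted p = 0.0590, and 0.177 with the filter of all libraries kept). *Psmb7*, the trypsin-like site, was at 305, 202 and 35.6 FPKM in AF NP and 85.5, 265 and 132 FPKM in AF P. *Psmb5*, the chymotrypsin-like site and the target of bortezomib, was at 11.1, 7.30 and 19.4 FPKM in AF NP and 21, 8.05 and 23.7 FPKM in AF P. It was higher in P than in the NP library of the same number in all 3 pairs, as *Psma5* and *Psmc6* were, but its fractions overlapped. Mean levels of the catalytic subunits in NP thus ranged from 12.6 FPKM for *Psmb5* to 285 FPKM for *Psmb6*.

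Among the structural beta subunits, *Psmb1* was at 553, 157 and 185 FPKM in AF NP and 94.3, 50.7 and 95.9 FPKM in AF P, and *Psmb3* was at 41.4, 27.1 and 67.3 FPKM in AF NP and 5.31, 4.95 and 18.2 FPKM in AF P. Both were lower in every P library without passing the adjusted threshold. The *Psmb3* value of AF P replicate 1 is about 2 reads, where 3 reads would be 7.97 FPKM. *Psmb4* was at 445, 342 and 313 FPKM in AF NP and 229, 139 and 563 FPKM in AF P, with overlap. *Psmb2* was dominated by replicate 1 in both fractions, at 173, 35.9 and 36.9 FPKM in AF NP and 188, 32.0 and 28.4 FPKM in AF P. The median ratio of the 7 beta genes was -0.47. Near-identical copies exist for *Psmb3* (3 sequences) and *Psmb5* (1 sequence).

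The subunits that replace the constitutive ones in other tissues were listed at 0 in most libraries. *Psmb8* and *Psmb9*, which replace *Psmb5* and *Psmb6* in the immunoproteasome after interferon, were listed at 0 in all 6 libraries, as was *Psma8*, the testis form of *Psma7*. *Psmb10*, which replaces *Psmb7*, was listed at 1.38 FPKM in AF P replicate 2 and at 0 elsewhere. *Psmb11*, the thymus form of *Psmb5*, was at 4.07 FPKM in AF NP replicate 2 and 6.08 FPKM in AF P replicate 3, and at 0 in the others, while *Psmb5* was at 7.30 FPKM in that NP library and 23.7 FPKM in that P library. In AF NP replicate 2, 3 reads of *Psmb8* would be worth 0.0491 FPKM, so its level there was far below that of *Psmb5* at 7.30 FPKM as far as the zero is a true count.

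The ATPase ring unfolds the substrate. *Psmc5* was at 533, 306 and 18.5 FPKM in AF NP and 223, 114 and 64.4 FPKM in AF P, and *Psmc4* at 196, 162 and 74.6 against 78.8, 94.1 and 44.9 FPKM. *Psmc1* varied least, at 69.2, 92.8 and 100.1 FPKM in AF NP and 109, 59.4 and 69.7 FPKM in AF P, and it has 2 pseudogenes above the identity limit. The levels of *Psmc5* and *Psmc3* differed between NP replicates by 28.8-fold and 8.04-fold, which was more than between the fraction means. *Psmc3* was at 111, 70.3 and 13.8 FPKM in AF NP and 4.68, 22.5 and 105 FPKM in AF P, and *Psmc2* at 28.6, 31.1 and 6.54 against 9.71, 18.6 and 0.385 FPKM. The fractions overlapped in all 5 genes, and the median ratio of the 6 ATPases was -0.62.

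*Psmc6* was the lowest ATPase in each NP library and the other proteasome gene that was higher in every P library. It was at 2.58, 0.424 and 0.422 FPKM in AF NP and at 11.7, 2.80 and 16.5 FPKM in AF P. The gap between the highest NP and the lowest P library was narrow, 2.58 against 2.80 FPKM. The 11.7 FPKM of AF P replicate 1 is near the 9.17 FPKM that 3 reads give a 2 kb gene in that library. The log2 ratio was 2.29 (SE 1.22, limma adjusted p = 0.357; range over the alternatives 0.239 to 0.668), and no alternative called it. No other sequence of the annotation matched it above the identity limit.

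In the lid and base without ATPase activity, *Psmd8* stood above the rest and *Psmd4* came next, at 495, 495 and 260 FPKM in AF NP and 47.8, 60.8 and 372 FPKM in AF P. AF P replicate 3 was high and alone in the NP range, and without it *Psmd4* was called lower (limma adjusted p = 0.0438, and 0.121 with the filter of all libraries kept), which it was not with all libraries. *Psmd6*, a lid subunit, was at 76.1, 57.2 and 9.18 FPKM in AF NP and 2.62, 6.03 and 5.55 FPKM in AF P. Its fractions did not overlap, with a log2 ratio of -2.70 (SE 1.15, limma adjusted p = 0.268; range over the alternatives 0.129 to 0.739). Its 2.62 FPKM in AF P replicate 1 lies below the 9.17 FPKM that 3 reads give a 2 kb gene in that library. The scaffold subunits *Psmd1* and *Psmd2* varied widely, *Psmd1* at 3.73, 34.7 and 11 FPKM in AF NP and at 99.4, 10.0 and 0 FPKM in AF P, and *Psmd2* at 56.0, 141 and 17.7 against 165, 51.0 and 19.2 FPKM. *Psmd14*, the deubiquitinase that removes the ubiquitin chain, was among the low subunits at 1.43, 7.56 and 2.57 FPKM in AF NP and 2.16, 3.73 and 2.75 FPKM in AF P, and the latter are about 1, 12 and 12 reads.

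The other lid and base subunits were *Psmd3*, *Psmd7*, *Psmd11*, *Psmd12* and *Psmd13*. *Psmd7*, the partner of *Psmd14*, was at 4.55, 9.43 and 187 FPKM in AF NP and at 0, 6.03 and 13.3 FPKM in AF P. AF NP replicate 3 held 93.0% of its summed NP level. *Psmd3* was between 5.99 and 23.9 FPKM, and *Psmd11*, *Psmd12* and *Psmd13* were between 0 and 13.5 FPKM. *Psmd13* shares 342 bases with *Sirt3* on the opposite strand. Near-identical copies exist for *Psmd2* and *Psmd11*, 1 each. The median ratio of the 11 genes was -0.85, with 9 ratios below 0 and 2 above.

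The helpers of 19S base assembly *Psmd5*, *Psmd9* and *Psmd10*, which are not part of the finished particle, carry the same letter. *Psmd5* was at 93.9, 258 and 16.5 FPKM in AF NP and 76.6, 107 and 33.9 FPKM in AF P, *Psmd9* at 96.0, 52.4 and 24.7 against 34.8, 26.9 and 25.5 FPKM, and *Psmd10*, also known as the oncoprotein gankyrin, at 32.4, 25.5 and 3.48 against 24.9, 6.56 and 29.4 FPKM. The fractions overlapped in all 3 genes, whose median ratio was -0.19. *Psmg1*, *Psmg2*, *Psmg3* and *Psmg4* encode the chaperones PAC1 to PAC4, which build the alpha ring of the core. *Psmg1* was at 59.5, 40.6 and 84.6 FPKM in AF NP and at 0, 15.6 and 55.7 FPKM in AF P, and *Psmg4* at 43.7, 69.0 and 17.1 against 55.1, 4.74 and 1.17 FPKM. *Psmg3* was between 0 and 20.2 FPKM in the 6 libraries. *Psmg2*, the partner of *Psmg1* in a heterodimer, was listed at 0 in all 6, and whether this is a failed estimate was not tested. The median ratio of the 3 core chaperones tested was -2.12, all 3 ratios were below 0, and none passed the test.

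The activators are caps that open the core without ubiquitin. *Psme3* (PA28 gamma, a nuclear activator) was at 83.8, 60.9 and 31.8 FPKM in AF NP and 60.0, 59.4 and 2.85 FPKM in AF P. Each P library was below the NP library of the same number, but the fractions overlapped. *Psme4* (PA200, which acts on acetylated histones) was at 20.1, 18.2 and 12.7 FPKM in AF NP and 22.6, 11.7 and 93.6 FPKM in AF P, where AF P replicate 3 was high, replicate 1 just above the NP range and replicate 2 just below it. Its log2 ratio was 0.79 (SE 1.07, limma adjusted p = 0.70; range over the alternatives 0.453 to 1.0), the third highest of the 44, and without AF P replicate 3 it turned to -0.03. *Psme1* and *Psme2* (PA28 alpha and beta, which like the immunoproteasome respond to interferon) were at 0 in most libraries. *Psme1* had 1 read in each of AF P replicates 2 and 3, worth 0.397 and 0.292 FPKM, and was listed at 0 elsewhere. *Psme2* was at 7.79, 4.42 and 0 FPKM in AF NP, from about 17 reads in replicate 1 and 141 in replicate 2, and listed at 0 in AF P, and its copy *Psme2b-ps* at 1.93, 1.65 and 0 FPKM in AF NP and likewise at 0 in AF P. Their sequences are 99.37% identical over 794 bases, so the reads of the pair cannot be told apart.

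*Psmf1* encodes PI31, which inhibits the core in the test tube and is known as an adaptor for its transport. It was at 133, 273 and 341 FPKM in AF NP and 27.5, 54.0 and 47.5 FPKM in AF P. All P libraries were below all NP libraries, and the lowest NP library was above the highest P library by 133 against 54.0 FPKM. It did not pass the test with all libraries taken as unpaired and was called lower with the replicate number as a block (limma adjusted p = 0.0915), which raised the proteasome genes called from 1 to 3 of 44 (6.82%), where 6.27% of all genes were then called lower. In pairs of libraries with the same number, 15 of the 44 genes were lower in P in all 3 pairs (34.1%, and 38.6% of all genes) and 3 were higher in all 3 (6.82%, and 2.09% of all genes). The median ratio of the 44 genes within pairs was -1.27, -1.0 and -0.05 for replicates 1, 2 and 3, with an SD of 0.64.

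*Psmc3ip* shares the prefix but encodes HOP2, which acts in meiotic recombination and is not a proteasome subunit. It was at 29.3, 22.3 and 65.1 FPKM in AF NP and 6.72, 5.78 and 0 FPKM in AF P, the latter from about 2, 12 and 0 reads. All P libraries were below all NP libraries. It had the lowest ratio of the 44 genes at -3.27 (SE 1.20, limma adjusted p = 0.193; range over the alternatives 0.102 to 0.699), a fitted value that depends on the pseudocount. It shares 385 bases with *Mlx* on the opposite strand, which was at 62.2, 35.8 and 270.6 FPKM in AF NP and 30.5, 50.8 and 57.5 FPKM in AF P. The NP libraries have the same order in both genes and the P libraries the opposite order. The part of the overlap in the result was not tested.

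Genes that work with the proteasome but carry other symbols were read from lists chosen with earlier results of these data known. Of 24 tested partners of the proteasome, none passed the test, 4 had an unadjusted p under 0.05, and the median ratio was -1.32, with 16 ratios below 0 and 8 above. Over all genes tested, 15.8% had an unadjusted p under 0.05, 80.1% had a ratio below 0 and the median was -1.03. *Pomp*, the chaperone that completes the core, was at 20.9, 15.3 and 26.1 FPKM in AF NP and 33.3, 28.6 and 36.1 FPKM in AF P. All P libraries were above all NP libraries, as in *Psma5* and *Psmc6*. The ubiquitin receptor *Adrm1*, a cap subunit counted in this list, was at 20.1, 14.7 and 7.66 FPKM in AF NP and 2.74, 10.6 and 2.03 FPKM in AF P. The cap subunit *Shfm1*, also in this list, was at 1.69, 61.5 and 20.6 FPKM in AF NP and 38.4, 16.5 and 5.41 FPKM in AF P. The deubiquitinase *Uchl5*, which *Adrm1* recruits, was listed at 0.134 FPKM in AF NP replicate 3 and at 0 elsewhere. *Nfe2l1*, the transcription factor that raises proteasome genes when proteolysis is short, was at 42.8, 32.9 and 5.65 FPKM in AF NP and 5.61, 10.5 and 8.66 FPKM in AF P, with overlap.

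Ubiquitin itself was well represented. *Ubb*, a polyubiquitin gene, was at 147, 325 and 356 FPKM in AF NP and 135, 91.5 and 276 FPKM in AF P. *Uba1*, the main E1 enzyme that activates ubiquitin, was at 256, 289 and 227 FPKM in AF NP and 104, 94.0 and 51.6 FPKM in AF P, with every P library below every NP library. Of 5 genes tested among the ubiquitin genes and E1 enzymes none passed, 2 had an unadjusted p under 0.05 (15.8% of all genes), and the median ratio was -1.67 (-1.03 over all genes). Of 9 genes of the p97 unfoldase and its cofactors none passed and 1 had an unadjusted p under 0.05, with a median ratio of -1.35, beside the same values over all genes. *Vcp*, which encodes p97, was low at 0.50, 1.88 and 0 FPKM in AF NP and 0, 3.79 and 1.06 FPKM in AF P, while its cofactor *Nploc4* was at 98.4, 130 and 101 FPKM in AF NP and 57.5, 84.6 and 135 FPKM in AF P.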

How the data were processed

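RNA of AF NP and AF P fractions (3 libraries each) was depleted of rRNA, amplified and sequenced. Per the study's methods and the submitters' processing notes, trimming was done with Trim Galore (0.4.1) and alignment to GRCm38 with HISAT2 (2.0.5), and the authors deposited the FPKM of each gene from Seqmonk. Not given in the sources used here are the annotation release, the strand setting and the treatment of reads with several matches. Columns of fraction means were not used.

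For 66 duplicate rows of 25965 the row with the highest mean was kept. Steps between low FPKM values gave the depth, from the values of the 13244 rows (51.0%) whose coordinates equal GENCODE M21, where 87.3% to 91.6% of low values per library came out whole within 0.05 reads. What 1 step counts is not settled, so these depths are estimates, and amplified reads are not independent molecules.

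The fractions were compared by limma (3.58.1, in R 4.3.3) with a mean-variance trend on log2(FPKM + 1), two-sided, with a threshold of 0.1 on the Benjamini-Hochberg adjusted p. A ratio on this scale understates the change of low genes. An exact permutation test of 3 against 3 libraries cannot go below p = 0.1, and no source says whether the samples came from separate animals, so p-values measure the spread between these libraries. In simulated data, 200 genes were changed by 2 on the log2 scale, with the same noise for every gene. With a noise SD of 0.3, 200 of 200 changed genes were called, and 15 others among 8899. With the median SD of the real fit, 1.22, 2 of 200 were called among 16268 genes, so most such changes are missed at that noise. The real fit tested 10578 genes, whose noise differs from gene to gene, so its own rate of missed changes is not given by this simulation. Same-numbered NP and P libraries are taken as parts of 1 sample, since the fractions of each gradient were pooled into NP and P, although no source says that the numbers match. Their deviations from the group means correlated at 0.063, 0.099 and 0.116, and those of other pairs between -0.089 and 0.021. The comparison was unpaired, and the block an alternative. The closing section gives the other alternatives.

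The genes and lists were chosen with earlier results of these data known. Each proteasome gene is accounted for. Ratios with SE and adjusted p are given for genes past the threshold and for the 3 highest and 3 lowest, and adjusted p of *Psmf1* and *Psmd4* for alternatives that call them. Of the lists, genes were picked for their roles or after their values were seen. Copies were found with BLAST 2.17.0.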

Additional observations from a re-analysis of the deposited data

How the results depend on the processing

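Unpaired and with all libraries, 190 genes were called lower in P and 2 higher, 1 of the lower ones a proteasome gene. Lower calls numbered 67 with a pseudocount of 0.1, 1 with no filter, 1 with median-of-ratios scaling, 2 with quantile normalization, 5 with a common FPKM sum, 15 without the trend and 63 at an adjusted p of 0.05. Higher calls fell to 0 with no filter and without the trend. Proteasome genes called by limma were 0 with no filter (9 of 50 at an unadjusted p under 0.05, and 6.85% of all genes), under the 3 scalings (4 each, or 9.09% to 9.30%, and 7.20% to 7.66% of all genes), without the trend (8, or 18.2%, and 16.4% of all genes) and at 0.05 (10). The median ratio of the proteasome genes moved from -0.83 to 0.15 with median-of-ratios scaling, 0.20 with quantile normalization and 0.12 with a common FPKM sum. Relative to the median of all genes it was 0.51, 0.19 and 0.55 on these scales, 0.20 as deposited, 0.72 with a pseudocount of 0.1, -0.05 with a pseudocount of 5, -0.57 with no filter (all 50 genes) and 0.028 without AF NP replicate 3, so its sign depends on the setting. The cause was not tested.

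With the replicate block, 663 genes were called lower and 5 higher, and 3 proteasome genes, *Psmd8*, *Psmb6* and *Psmf1*. With each library left out in turn, calls ranged from 0 to 328 lower, 0 to 4 higher and 0 to 2 in the proteasome, and the proteasome median from -1.31 to -0.62. Without AF P replicate 3 there were 328 lower calls, and with the filter of all libraries kept *Psmd8* was not called whichever library was left out. The ratio of *Psme4* ranged from -0.031 to 1.42, and was below 0 without AF P replicate 3 with either filter. For the 7 genes with a printed ratio and 22 alternatives, 135 of the ratios kept direction and side of the threshold, 15 of *Psmd8* lost the call, 2 of *Psmb6* gained it and 2 of *Psme4* turned. Depth limits the low genes, most of all in AF P replicate 1.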
